A study of Mus musculus with 37 samples.

Results

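The change in gastrocnemius muscle of knockout mice between 4 and 8 weeks of age was described from 11 of the 37 bulk RNA libraries of the study, 5 of them taken at 4 weeks and 6 at 8 weeks. Members were chosen by genotype and age label alone. The knockout lacks Nampt in skeletal muscle (label SMNKO), and each library comes from 1 numbered animal. Animals 7, 8, 10, 11 and 12 were 4 weeks old, animals 39 to 44 were 8 weeks old, and animals 19 and 20, both 6 weeks old, show the path between. Animal 19 is labelled female. The promoter or Cre line that drives the deletion, and whether animals shared a litter or cage, are not given in the sources used here. For comparison, 6 wild-type animals of 4 weeks (1 to 6) and 5 of 8 weeks (34 to 38) were used, with 2 of 6 weeks (16 and 17) where stated. No animal in these groups carries a treatment label. The labels mark animal 11 as the only female among the 11 knockout animals of 4 and 8 weeks, and they give 1 of 2 sequencing pools: A for animals 7, 8, 39, 40 and 41, and B for animals 10, 11, 12, 42, 43 and 44. Pool was a term in every fit that held both pools.

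NAMPT is the rate-limiting enzyme of the salvage route that rebuilds NAD+ from nicotinamide, and skeletal muscle depends on this route for most of its NAD+. NAD+ carries electrons from glycolysis, the TCA cycle and fatty acid oxidation to the respiratory chain, and it is consumed by sirtuins and poly(ADP-ribose) polymerases. The gastrocnemius of the mouse is a mainly fast-twitch muscle. After fibres are injured, macrophages clear the debris while satellite cells, the muscle stem cells, divide, fuse and form fibres that pass again through embryonic and neonatal myosins.

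Total counts ran from 6668855 to 20997634 in the knockout libraries of 4 weeks, from 14510798 to 19592059 at 6 weeks and from 13422624 to 20760973 at 8 weeks. Animal 8 stood apart: ribosomal RNA genes took 29.3% of its counts, against at most 1.24% in every other knockout library of 4, 6 or 8 weeks, and its library was the smallest. Xist, which female cells transcribe from the silenced X, was high in animal 12 and animal 42, which are labelled male, so the labels of these libraries go against their counts. Among the wild-type animals of 8 weeks, animal 36 stood apart: its mean log2 CPM over 19 slow-fibre genes was 8.99, against 5.72 to 6.42 in the other 4, and over 22 fast-fibre genes 10.17, against 11.46 to 11.56. In wild type, rRNA genes took 20.3% and 23.1% of the counts of animals 34 and 35, the only pool A animals of 8 weeks. They took 11.6% and 8.49% in wild-type animals 3 and 4 of 4 weeks. The labelled tissue held its defining transcripts: the 22 fast-fibre genes summed to 157000 to 217600 CPM (counts scaled to a common library total with TMM factors) at 4 weeks and to 38710 to 129400 at 8 weeks in the knockout.

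Over the 13 knockout libraries, the first principal component of the 2000 most variable genes held 55.7% of the variance and separated the ages. Animals of 4 weeks lay between -61.82 and -4.41 on it, and animals of 8 weeks between 21.22 and 52.78. Animal 19 of 6 weeks, at -28.16, lay among the animals of 4 weeks, and animal 20, at 14.66, lay next to those of 8 weeks. The second component, 16.5% of the variance, set animal 8 apart at -66.06.

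**Figure D1:**
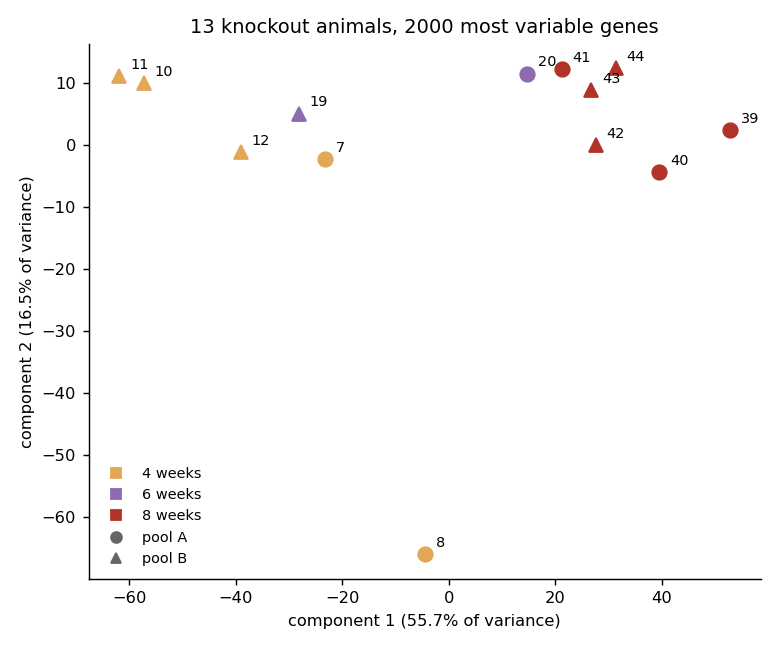
Position of the 13 knockout libraries on the first 2 principal components of log2 CPM (x axis, 55.7% of variance; y axis, 16.5%), 1 point per animal, coloured by age. The 6 animals of 8 weeks lie to the right of all 5 animals of 4 weeks, animal 19 lies among the 4-week animals, animal 20 lies just left of the 8-week animals, and animal 8 lies far down the second axis. Circles are pool A and triangles pool B.

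Nampt itself (ENSMUSG00000020572.8, chr12:32819545-32853349), the gene the study deleted, checks the labels. It stood at 70.2, 52.4, 58.6, 50.4 and 58.4 CPM in animals 7, 8, 10, 11 and 12 of 4 weeks, the order used for all lists of 5 values. At 6 weeks it was at 43.7 and 48.1 CPM in animals 19 and 20, and at 8 weeks it spanned 43.2 to 52 CPM (median 45.3). Wild-type animals had 95.1 to 140.3 CPM at 4 weeks and 155 to 214 CPM at 8 weeks, so every knockout library lay below every wild-type library, animals 12 and 42 included. In whole muscle this transcript also comes from cells other than fibres, and fewer cells of a type and less RNA per cell cannot be told apart here or in any result below.

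Within the knockout Nampt was lower at 8 weeks, at 45.9 ± 3.17 CPM (SD, n = 6) against 58 ± 7.73 (SD, n = 5), and the groups overlapped by animal 43. The difference of mean log2 CPM was -0.33, with p = 0.00649 in a two-sided exact permutation test, whose smallest possible p is 0.00216. It did not hold without scaling factors, where the difference was 0.34 with p = 0.177 by the same exact test. By edgeR over all genes the log2 change was -0.34 (adjusted p = 0.0259), and this call was lost when any of animals 7, 10, 12, 40, 42 or 44 was left out (adjusted p of 0.0506 to 0.111) and with no filter on low counts (0.0636). Within pool A the difference of means was -0.43 and within pool B -0.25, with exact p of 0.1 and 0.2, and 0.1 is the smallest p that either pool allows.

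Of 14608 genes tested, 2523 (17.3%) were higher and 2256 (15.4%) lower at 8 weeks than at 4 weeks in the knockout, with edgeR's quasi-likelihood test and Benjamini-Hochberg adjusted p below 0.05. Of these, 1241 rose and 572 fell by more than 2-fold. Every list count below is to be read against the shares over all genes, 17.3% higher and 15.4% lower. The sign was the same within pool A and within pool B for 4774 of the 4779 called genes, and 4543 (95.1%) kept their call and direction without animal 8. The genes were called on these same libraries, so both counts are largely set by that choice and are no separate support. Leaving out animal 7 took the count of genes lower from 2256 to 1482 and that of genes higher from 2523 to 1894. Pool A alone, with 2 against 3 animals, called 4 genes higher and 11 lower. The p-values measure the spread between these animals.

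The balance of rises and falls depends on the scaling. TMM factors were 0.483 to 1.06 at 4 weeks and 1.30 to 1.69 at 8 weeks. A fixed set of 50 genes was taken, those with the most counts over the knockout libraries of both ages, without rRNA genes and Lars2. This set took 36.6% to 48.2% of the counts outside rRNA genes at 4 weeks and 26.4% to 40.8% at 8 weeks. With no factors the median change over all genes was 0.64 instead of 0.02, and 7188 genes were called higher and 292 lower, 96.1% higher instead of 52.8%. All changes below are log2 values on the TMM scale, that is, relative to the middle of all genes. For the 163 genes named in the text the log2 change without factors was higher by 0.485 to 0.736. Values without factors are given beside lists whose median changes sign or comes near 0 and beside called falls that come within 0.3 of 0.

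Among the largest rises were macrophage genes, genes of newly formed fibres and genes of antigen presentation. Among the largest falls were myelin and globin genes, the fast-fibre water channel Aqp4 and genes of none of these groups, such as Kcne1l, Dusp26 and Ppp1r1a. The heat map of named genes shows them animal by animal.

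**Figure D2:**
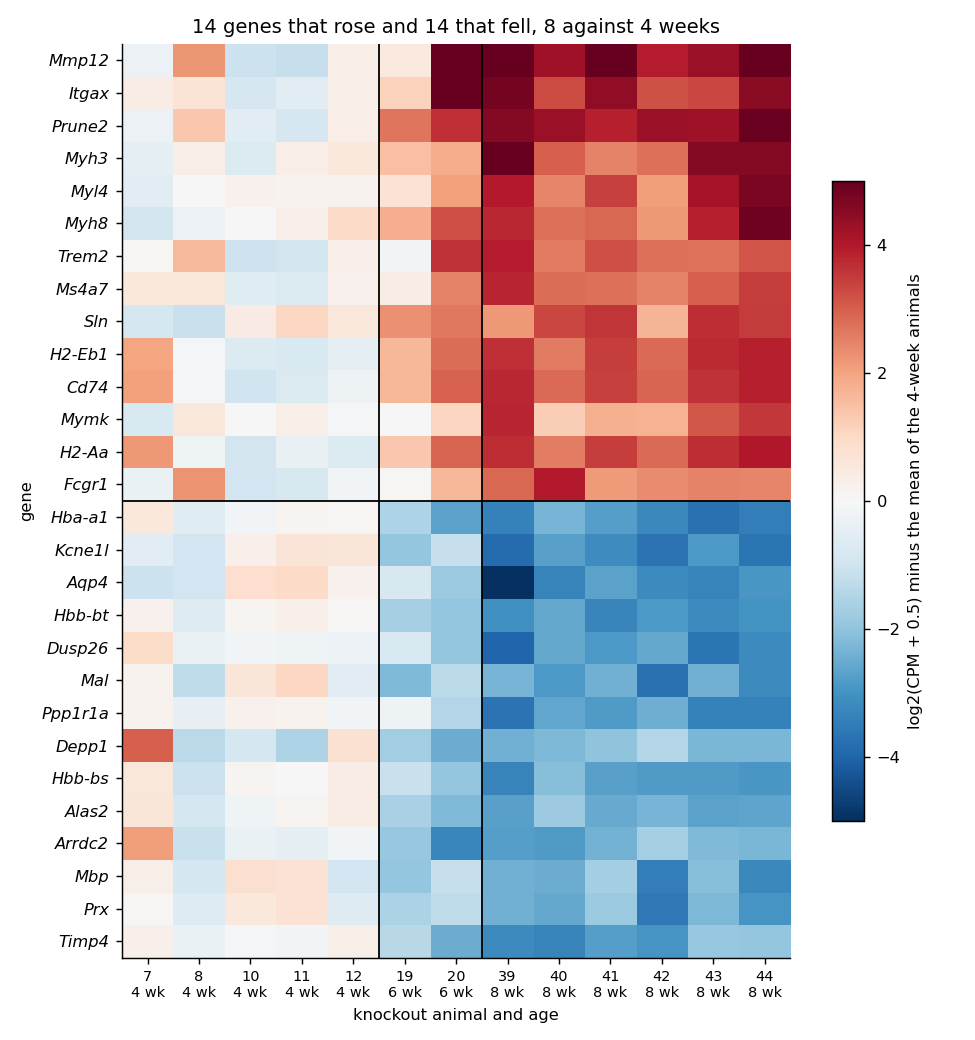
For 14 of the 15 genes with the largest rises and 14 of the 15 with the largest falls (rows), levels are drawn in each knockout animal of 4, 6 and 8 weeks (columns), as log2(CPM + 0.5) minus the mean of the 4-week animals, red for higher and blue for lower. The 6 columns of 8 weeks are red for the genes that rose and blue for those that fell, as the choice of genes fixes, animal 20 is dark red for Mmp12 and Itgax, and animal 7 is red for Depp1 and Arrdc2.

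Macrophage genes rose nearly as a block. Of 30 macrophage markers, 29 rose and none fell between 4 and 8 weeks, with a median change of 2.27, against 17.3% of all genes called higher and a median of 0.02. Their summed level was 198 to 763 CPM at 4 weeks, 252 to 1742 at 6 weeks and 1173 to 2514 at 8 weeks. No marker of the list was at 0 over the groups. For 20 of the 30 the 2 groups did not overlap, against 8.07% of all genes whose 8-week values all lay higher.

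Itgax, the integrin CD11c (ENSMUSG00000030789.9, chr7:128129547-128150657), was at 1.13, 1.55, 0.208, 0.39 and 1.07 CPM in the 5 animals of 4 weeks, at 2.3 and 56.6 CPM in animals 19 and 20, and at 10.9 to 34.2 CPM (median 19.6) at 8 weeks. Every animal of 8 weeks lay above every animal of 4 weeks, and the highest value of all was that of animal 20 at 6 weeks. The log2 change was 4.67 (SE 0.46, edgeR adjusted p = 8.82e-05). Mmp12, macrophage elastase (ENSMUSG00000049723.14, chr9:7344381-7369499), went from 0.542, 5.27, 0.104, 0.0651 and 1.07 CPM to 18.8 to 80.3 CPM (median 37.6), again without overlap. Its log2 change was 5.75 (SE 0.72, edgeR adjusted p = 4.05e-04) and 6.41 without animal 8, the highest of 4 weeks. At 6 weeks animals 19 and 20 differed for it as they did for Itgax, with 1.29 and 61.2 CPM.

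Trem2, a lipid-sensing receptor of macrophages, rose by 3.51 on the log2 scale with 0.365 to 4.96 CPM at 4 weeks and 10.4 to 27.1 CPM at 8 weeks. Ms4a7 rose by 3.41, the adaptor Tyrobp by 2.34 and the high-affinity IgG receptor Fcgr1 by 3.14, and Fcgr1 rose by 3.84 without animal 8, whose 8.07 CPM overlapped the 8-week range. The 3 chains of complement C1q, which macrophages make, moved together: C1qa rose by 2.2, C1qb by 2.18 and C1qc by 1.99. Cd163, a scavenger receptor of resident macrophages, was the 1 marker that did not pass, with a log2 change of 0.22 and 12.6 to 21.9 CPM at 4 weeks against 18.1 to 25.2 CPM at 8 weeks. Mrc1, the mannose receptor named here after its values were seen, rose by 0.69, and without animal 7 its change of 0.57 no longer passed.

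Animals of 4 weeks were not alike. The mean log2 CPM of the macrophage markers was 3.97 in animal 8, 3.05 in animal 7 and 2.75 in animal 12, but 1.44 and 1.58 in animals 10 and 11. Wild-type animals of 4 weeks lay between 1.3 and 2.0. All 6 animals of 8 weeks lay between 4.61 and 5.61, above each of the 5.

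Markers of other leukocytes were few. Of 14 neutrophil markers 3 were abundant enough to test and 1 rose, with sums of 0.729 to 12.6 CPM at 4 weeks and 4.57 to 10.9 at 8 weeks. Of 22 lymphocyte markers 6 were tested, 1 rose and none fell, and their sum was 12.3 to 129.5 CPM at 4 weeks and 10.1 to 35 at 8 weeks. The highest of these sums was that of animal 7.

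MHC class II genes, which present antigen on macrophages, dendritic cells and B cells, formed a second block. This list of 8 tested genes was drawn up after their values were seen. Of them 7 rose, with a median of 2.82. In wild type the median over the same weeks was 1.41, with 1 of the 8 called higher. Only 1 of the 8 differed between the genotypes in the interaction contrast. H2-Eb1 (ENSMUSG00000060586.10, chr17:34305867-34316674) was at 26.2, 5.89, 3.75, 3.45 and 4.35 CPM at 4 weeks, 20.8 and 45.6 CPM at 6 weeks and 40.4 to 98.1 CPM (median 79.6) at 8 weeks. Animal 7 held several times the level of the other 4 animals of 4 weeks, and it still lay below all 6 of 8 weeks. The log2 change was 3.18 (SE 0.54, edgeR adjusted p = 0.00167) and 4.15 without animal 7. Cd74, the invariant chain, rose by 3.18 and H2-Aa by 3.14, and without animal 7 by 3.99 and 4.18. H2-DMa and H2-DMb1, which load peptides, rose by 1.64 and 2.54. H2-Ob, a modulator of that loading in B cells, did not pass: it was at 6.23 CPM in animal 7 and at most 0.793 CPM in every other knockout animal of 4, 6 or 8 weeks, and its log2 change of -0.91 turned to 2.18 without animal 7. The lymphocyte sum moves with these values in animal 7, and its part in them was not tested.

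Interferon-response genes rose. Of 30 tested, 26 rose between 4 and 8 weeks and none fell, with a median of 1.17, against 17.3% of all genes higher. Rsad2, Gbp2, Gbp7 and Isg20 did not pass. Irf7, a transcription factor that amplifies the interferon response (ENSMUSG00000025498.15, chr7:141262706-141266481), was at 2.98, 3.72, 1.93, 1.89 and 2.38 CPM at 4 weeks, at 12.9 and 16.3 CPM at 6 weeks and at 8.37 to 19 CPM (median 15.1) at 8 weeks. Both animals of 6 weeks were inside the 8-week range. Its log2 change from 4 to 8 weeks was 2.55 (SE 0.23, edgeR adjusted p = 4.51e-05), and that from 6 to 8 weeks was 0.01.

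Other members of the list differed in where the animals of 6 weeks lay. Ifit1, which binds viral RNA, was at 2.21, 2.79, 1.82, 2.15 and 1.79 CPM, then 6.32 and 4.77 CPM, then 4.67 to 6.58 CPM (median 5.99), and Ifit3, chosen for its promoter below, at 1.76, 2.79, 1.72, 2.15 and 2.02 CPM, then 5.89 and 6.94 CPM, then 4.56 to 9.47 CPM (median 8.49). Oasl2 rose by 2.21 and Ifi27l2a by 2.6 between 4 and 8 weeks, while Stat2, which carries the type I interferon signal to the nucleus, rose by 1.27. For Stat2 animal 19, at 7.11 CPM, lay inside the 4-week range of 4.81 to 7.76 CPM, and animal 20, at 11 CPM, lay between it and the 8-week range of 12.2 to 15.1 CPM. The mean log2 CPM of the list was also higher at 6 weeks in wild type, at 2.12 and 1.97 in animals 16 and 17 against 1.35 to 1.66 at 4 weeks and 1.65 to 2.05 at 8 weeks, and it was 2.36 and 2.7 in the knockout animals of 6 weeks.

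Promoters of this group are shown because its members moved together. The window ran from 250 bases before to 50 bases after each start (RefSeq, GRCm38.p6), and 23 of the 30 genes had one. The interferon-stimulated motif, searched as GAAANNGAA on both strands and chosen after the values were seen, was in 13 of the 23 windows (56.5%), in 8.57% of all 27025 promoters and in 7.27% of the 10785 promoters of tested genes. In the stretches of 100 bases below, read 5′ to 3′ on the strand of the gene, capitals mark each match, which on these strands reads as the reverse complement; overlapping matches run together.
Ifit1 (chr19:34640747-34640846, + strand): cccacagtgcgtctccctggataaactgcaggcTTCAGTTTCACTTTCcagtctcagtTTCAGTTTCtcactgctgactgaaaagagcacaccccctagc
Ifit3 (chr19:34583355-34583454, + strand): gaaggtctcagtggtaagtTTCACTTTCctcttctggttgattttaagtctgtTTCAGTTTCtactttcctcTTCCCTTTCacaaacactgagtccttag
Both stretches hold 3 matches. For the MHC class II genes, 4 of 5 windows held CCAAT on either strand (80.0%), a box known to be part of class II promoters, against 37.9% of all promoters. The 2 stretches below are those of genes that rose by over 3 on the log2 scale, with CCAAT or its complement in capitals.
H2-Eb1 (chr17:34305772-34305871, + strand): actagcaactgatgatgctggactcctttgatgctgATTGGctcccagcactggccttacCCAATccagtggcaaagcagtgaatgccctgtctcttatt
H2-Aa (chr17:34287820-34287919, - strand): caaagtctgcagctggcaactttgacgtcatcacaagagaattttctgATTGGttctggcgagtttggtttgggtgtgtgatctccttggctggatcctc
A match is a description of letters and says nothing of binding in these animals.

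Chemokines, complement and inflammatory signalling rose in part, where 17.3% of all genes were higher and 15.4% lower. Of 21 chemokines and receptors 12 rose and 1 fell. Cxcl16 rose by 2.32, Cxcl9, an interferon-induced T cell attractant, by 2.28 and Cx3cl1 by 2.17. Of 19 complement genes 12 rose and 1 fell, and Cd55, which protects cells from complement, rose by 1.94 with 9.31 to 16.5 CPM at 4 weeks and 33.2 to 72.7 CPM at 8 weeks. Of 29 inflammatory signalling genes 14 rose and 1 fell, among them the receptor Tlr2 by 1.77, the inflammasome protease Casp1 by 1.99, Tnfrsf1b by 1.47 and Tnfaip3 by 1.0.

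Genes of newly formed fibres rose strongly and unevenly. Of 25 genes of developmental myosins and regenerating fibres, 13 rose and 3 fell, with a median of 1.51. Myh3, the embryonic myosin heavy chain (ENSMUSG00000020908.14, chr11:67078300-67102291), was at 15.7, 27, 13.7, 27.8 and 31.7 CPM at 4 weeks, at 62.8 and 79.8 CPM at 6 weeks and at 126 to 811 CPM (median 358) at 8 weeks. No value of 8 weeks reached down to 4 weeks. Animals 39, 43 and 44 had 811, 547 and 541 CPM, and animals 40, 41 and 42 had 176, 126 and 152. The log2 change was 4.12 (SE 0.58, edgeR adjusted p = 6.23e-04).

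Myh8, the perinatal myosin (ENSMUSG00000055775.16, chr11:67277124-67308634), went from 13.4, 21.1, 25.2, 31.1 and 50.3 CPM through 91.5 and 246 CPM to 117 to 755 CPM (median 274), a log2 change of 3.68. Myl4, the embryonic light chain, rose by 3.85. The fusion proteins myomaker (Mymk) and myomixer (Mymx), which join myoblasts into fibres, rose by 3.17 and 4.44. Mymk was at 1.45, 4.34, 2.76, 3.51 and 2.68 CPM at 4 weeks and 7.29 to 45.2 CPM (median 19.3) at 8 weeks, with 45.2, 27.8 and 38 CPM in animals 39, 43 and 44 and at most 10.8 CPM in the other 3. Mymx, at 0.195 to 0.621 CPM at 4 weeks, is among the lowest of these genes, so its fold rests on few counts.

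The members that fell are foetal or imprinted genes of growing muscle. Dlk1 fell by 2.14 on the log2 scale, with 4.83 to 15.3 CPM at 4 weeks and 1.34 to 3.91 CPM at 8 weeks. Actc1, cardiac actin, fell by 1.72 (by 2.32 without animal 41), with 2622 to 6247 CPM at 4 weeks and 329 to 2499 CPM at 8 weeks. H19 fell by 0.59, a change of 0.03 without scaling factors, and lost its call when any of animals 7, 10, 11, 12, 40, 42, 43 or 44 was left out. In wild type Dlk1, Actc1 and H19 changed by -3.94, -2.6 and -1.7 over the same weeks, all 3 called.

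Myogenic factors rose in part. Of 22 myogenic and satellite-cell genes, a list that also holds Mymk and Mymx, 8 rose and none fell, with a median of 0.36. Pax7, the transcription factor of satellite cells, rose by 0.84 with 2.66 to 5.89 CPM at 4 weeks and 5.16 to 8.9 CPM at 8 weeks, groups that overlap. Vcam1 rose by 1.05. Myog, the factor of terminal differentiation, named after its values were seen, was at 15.2, 27.9, 16.6, 25.1 and 16.6 CPM at 4 weeks and at 19.2 to 92.9 CPM (median 39.4) at 8 weeks, with the highest values again in animals 39, 43 and 44, and its rise of 1.16 lost its call without animal 7, 10, 12, 39, 43 or 44 (0.84 to 1.11).

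**Figure D3:**
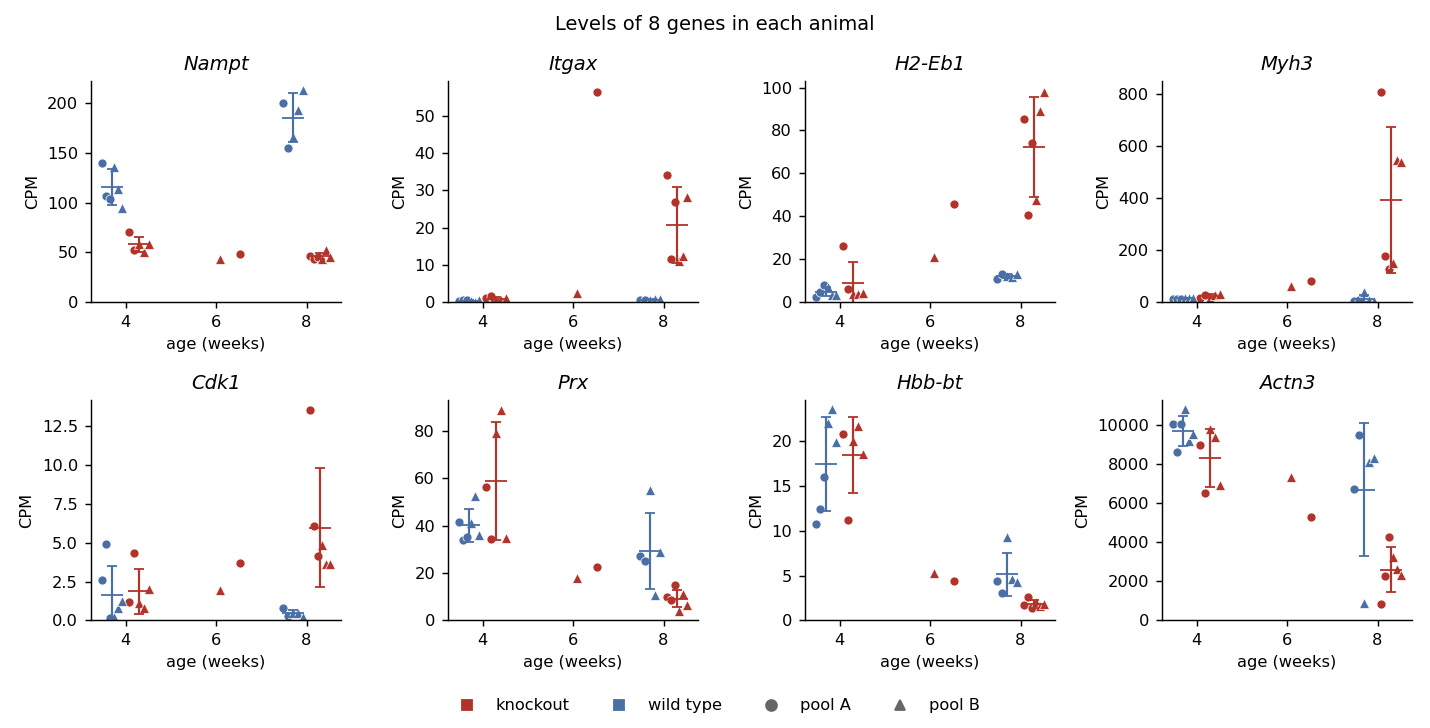
CPM (y axis, linear) of 8 genes by age in weeks in knockout (red) and wild-type (blue) animals, 1 point per animal, circles for pool A and triangles for pool B, with the group mean and SD as bars at 4 and 8 weeks. Itgax and Myh3 lie higher in all 6 knockout animals of 8 weeks than in the 5 of 4 weeks, Prx lies lower, and Nampt is below wild type in every knockout animal. The blue triangle near 0 for Actn3 is wild-type animal 36.

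Genes of the nerve-muscle contact rose in part. Of 28 denervation and synapse genes, 10 rose and 1 fell, with a median of 0.23. Chrng, the foetal subunit of the acetylcholine receptor (ENSMUSG00000026253.14, chr1:87204657-87212694), was at 0.948, 2.48, 0.469, 0.651 and 0.655 CPM at 4 weeks, 1.01 and 2.46 CPM at 6 weeks and 4.94 to 34.5 CPM (median 12.9) at 8 weeks, a log2 change of 4.21 (SE 0.66, edgeR adjusted p = 0.00107). The adult subunit Chrne, the 1 gene of the list that fell, changed by -0.68, and by -0.08 without scaling factors. The receptor kinase Musk rose by 1.64, Chrnd by 1.81 and the metallothionein Mt3 by 1.9. The E-box CAGCTG, a site of myogenic factors that reads the same on both strands, was chosen after the values were seen. It was in 8 of 21 windows of this list (38.1%) against 16.1% of all promoters. This share was not particular to lists that rose. In the calcium handling list below, where 20 of 33 genes fell, 9 of 19 windows held the site (47.4%). Of the smooth muscle and pericyte windows 5 of 11 held it (45.5%), and of the myogenic and satellite-cell windows 0 of 13.

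Cell cycle genes rose at low levels, in groups that mostly overlapped. Of 32, 23 rose and none fell, with a median of 1.29, and 13 rose without animals 12 and 42. Cdk1, the mitotic kinase (ENSMUSG00000019942.13, chr10:69335146-69352938), was at 1.17, 4.34, 1.09, 0.781 and 2.02 CPM at 4 weeks, at 1.94 and 3.71 CPM at 6 weeks and at 3.61 to 13.5 CPM (median 4.52) at 8 weeks. Animal 8 of 4 weeks lay inside the 8-week range, and animal 39, at 13.5 CPM, stood above the other 5, of which the highest was animal 40 at 6.05 CPM. The log2 change was 1.76 (SE 0.40, edgeR adjusted p = 0.00669). Ccne1, Ccnb2 and Tyms rose by 1.92, 1.97 and 1.2, each highest in animal 39. Ccnb2 was the only 1 of the 32 genes whose groups did not overlap, a smaller share than the 8.07% of all genes whose 8-week values all lay higher.

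Cell cycle promoters are known for their CCAAT boxes, and 22 of the 25 windows of this list held one (88.0%), against 37.9% of all promoters and 38.0% of those of tested genes. Those of Cdk1 and Ccnb2 are shown as the mitotic kinase and one of its cyclins, with CCAAT or its complement in capitals.
Cdk1 (chr10:69352909-69353008, - strand): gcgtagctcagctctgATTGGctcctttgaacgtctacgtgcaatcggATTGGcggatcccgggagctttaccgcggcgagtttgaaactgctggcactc
Ccnb2 (chr9:70421557-70421656, - strand): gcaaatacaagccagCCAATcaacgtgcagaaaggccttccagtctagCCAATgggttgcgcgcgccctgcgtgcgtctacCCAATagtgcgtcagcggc
The first stretch holds 2 of the 3 matches in its window, and the second holds 3.

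Schwann cell genes, which wrap motor axons in myelin, fell. Of 14 tested markers none rose and 12 fell, with a median of -2.34 (-1.73 without scaling factors), against 15.4% of all genes lower. Prx, periaxin, a protein of the myelin sheath (ENSMUSG00000053198.13, chr7:27499324-27520214), was at 56.6, 34.4, 79.4, 89.1 and 34.8 CPM at 4 weeks, at 17.9 and 22.4 CPM at 6 weeks and at 4.09 to 14.8 CPM (median 9.25) at 8 weeks, and neither animal of 6 weeks reached the lowest animal of 4 weeks. Its log2 change was -2.72 (SE 0.35, edgeR adjusted p = 3.68e-04). Mbp fell by 2.72, Mal by 3.16 and Ncmap by 3.26. Sox10, the transcription factor that defines these cells, fell by 2.45 with 2.17 to 5.53 CPM at 4 weeks and 0.423 to 0.979 CPM at 8 weeks.

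The summed level of the Schwann cell markers was 345 to 1120 CPM at 4 weeks, 172 to 259 at 6 weeks and 81.8 to 169 at 8 weeks in the knockout. In wild type it was 392 to 636 CPM at 4 weeks and 140.1 to 596 at 8 weeks. Both wild-type animals of 6 weeks lay below wild type of 4 weeks as well: the mean log2 CPM of the markers was 2.14 and 1.96 in animals 16 and 17, against 3.24 to 3.81 in wild type of 4 weeks and 2.25 and 2.69 in the knockout animals of 6 weeks. How much nerve each dissected muscle held is not given in the sources used here, and its part in the change was not tested.

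Erythroid transcripts fell in both genotypes. All 6 erythroid genes tested fell in the knockout, with a median of -3.11 and no overlap between the groups, against 7.06% of all genes whose 8-week values all lay lower. Hbb-bt, a beta globin (ENSMUSG00000073940.3, chr7:103812524-103813996), was at 11.2 to 21.7 CPM at 4 weeks, lowest in animal 8, 5.32 and 4.34 CPM at 6 weeks and 1.38 to 2.62 CPM (median 1.76) at 8 weeks. Hba-a1, Hbb-bs and Alas2, the erythroid enzyme of haem synthesis, fell by 3.45, 2.9 and 2.83. Paired globin genes are near-identical copies, so their split between copies is uncertain. In wild type all 6 fell too, with a median of -1.72.

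Vessel genes fell modestly on the TMM scale. Of 18 endothelial markers none rose and 10 fell, with a median of -0.60, which is 0.00 without scaling factors, where 3 were called higher and none lower. Ramp2, a co-receptor of adrenomedullin, changed by -0.96, Flt1, a VEGF receptor, by -0.80 and Tek, the angiopoietin receptor, by -0.84, and without factors these changes were -0.38, -0.15 and -0.26. Of 15 smooth muscle and pericyte markers none rose and 7 fell, with a median of -0.27 (0.39 without factors), Myh11, smooth muscle myosin, by 1.17. Of these 15, 5 were higher and 0 lower without factors, and 3 fell without animals 12 and 42.

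Fast-fibre genes fell, and their mean was below every animal of 4 weeks in all 6 animals of 8 weeks, by amounts that differed between animals. Of 22 genes none rose and 16 fell, with a median of -1.1 (-0.51 without scaling factors). Actn3, the alpha-actinin of fast fibres (ENSMUSG00000006457.3, chr19:4861216-4877909), was at 8999, 6530, 9789, 9399 and 6956 CPM at 4 weeks, at 7347 and 5320 CPM at 6 weeks and at 858 to 4280 CPM (median 2486) at 8 weeks. The lowest of these, 858 CPM, was animal 39 and the highest, 4280 CPM, animal 41. The log2 change was -1.66 (SE 0.32, edgeR adjusted p = 0.00267).

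Myh4, the myosin heavy chain of fast IIB fibres, was at 47770, 48010, 51650, 55060 and 46170 CPM at 4 weeks, 58900 and 60320 CPM at 6 weeks and 6537 to 28770 CPM (median 19500) at 8 weeks, so both animals of 6 weeks were above all 5 of 4 weeks and all 6 of 8 weeks. Its log2 change from 4 to 8 weeks was -1.41, and that from 4 to 6 weeks, 0.29, did not pass. Tnnt3, fast troponin T, fell by 1.24 and Ampd1, AMP deaminase of muscle, by 1.61. Aqp4, the water channel of fast fibres, fell by 3.33, from 48, 51.8, 179.7, 196 and 117 CPM to 1.45 to 15.3 CPM (median 10.1), the lowest in animal 39. In wild type Aqp4 was lower at 8 weeks too, without overlap, at 38.8 to 91.1 CPM against 143 to 226 CPM at 4 weeks.

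The sarcomere and calcium release apparatus fell in part. Of 32 sarcomere and Z-disc genes none rose and 17 fell, with a median of -0.59, which is 0.04 without factors, where 3 were higher and 1 lower. Pdlim5 changed by -0.92 and Myot, myotilin, by -0.97. Titin (Ttn) did not pass between 4 and 8 weeks, with a log2 change of -0.60 and 0.09 without factors. MEF2 sites, after a muscle transcription factor, were in 6 of 25 windows of this list, against 3.7% of all promoters.

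Of 33 genes of calcium handling and excitation, 2 rose and 20 fell, with a median of -0.66 (-0.04 without factors, where 5 were higher and 2 lower). Trdn, triadin, which anchors the calcium store to its release channel (ENSMUSG00000019787.9, chr10:33080554-33476709), was at 1324, 1202, 1751, 1546 and 1418 CPM at 4 weeks, 1312 and 984 CPM at 6 weeks and 255 to 620.4 CPM (median 512) at 8 weeks, a log2 change of -1.53. Asph, whose locus also encodes junctin, fell by 1.24 and Cacna2d1, a calcium channel subunit, by 1.16. The genes that rose concern the calcium pump: sarcolipin (Sln), its inhibitor, was at 1.53, 1.24, 4.53, 7.09 and 5.0 CPM at 4 weeks and 11.7 to 48.1 CPM (median 39.9) at 8 weeks, a log2 change of 3.2, and Atp2a2, the pump of slow fibres, named after its values were seen, rose by 0.74.

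Of 19 slow-fibre genes 4 rose and 4 fell, shares near those over all genes (17.3% and 15.4%), with a median of -0.16 (0.40 without factors). Without animals 12 and 42, 5 rose and 1 fell. Myh6, alpha cardiac myosin, was at 1.99, 1.55, 1.82, 2.15 and 2.32 CPM at 4 weeks but at 0.359 and 0.193 CPM at 6 weeks and 0.133 to 0.329 CPM (median 0.244) at 8 weeks, a log2 change of -3.06. Tnni1, slow troponin I, rose by 1.18 and Lgals1, galectin-1, by 1.06. Myl3, slow myosin light chain, changed by -0.63 and by -0.08 without factors, and lost its call when any of animals 7, 10, 11, 12, 39, 40, 42, 43 or 44 was left out (-0.49 to -0.70).

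Genes of energy metabolism fell together on the TMM scale and sat near 0 without it. Of 23 TCA cycle genes none rose and 20 fell, with a median of -0.64, against -0.03 without factors, where none was called, and 12 fell without animals 12 and 42. Dld, the subunit shared by the dehydrogenases of pyruvate and 2-oxoglutarate (ENSMUSG00000020664.10, chr12:31331277-31351453), was at 210.5, 213, 266, 241 and 270.0 CPM at 4 weeks, 218 and 178 CPM at 6 weeks and 115 to 180.2 CPM (median 146) at 8 weeks, without overlap, a log2 change of -0.68 (SE 0.11, edgeR adjusted p = 8.23e-04) that is -0.04 without factors. Sucla2 changed by -1.08 and -0.51 without factors, and Mdh2, malate dehydrogenase, by -0.68 and -0.04.

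Of 31 genes of fatty acid oxidation none rose and 19 fell, with a median of -0.65 (-0.08 without factors, where 1 was higher and none lower), and 8 fell and 1 rose without animals 12 and 42. Acadm, a medium-chain acyl-CoA dehydrogenase, changed by -0.94, Eci1 by -1.01, Etfb by -0.81 and Cpt1b, the gate of mitochondrial fat import, by -0.69, and without factors Etfb by -0.21 and Cpt1b by -0.10. Of 37 nuclear genes of Complex I 24 fell, and of 38 of Complexes III to V 27 fell, with medians of -0.52 and -0.58 that are 0.05 and 0.00 without factors. The counts that fell were 7 and 5 without animals 12 and 42, and 0 and 1 without factors. Cox6a2, the muscle form of a Complex IV subunit, was among those that fell, by 1.3 with factors and -0.71 without.

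None of the 8 mitochondrially encoded mRNAs passed in the knockout, with a median of -0.31 (0.38 without factors). The pools went opposite ways for these 8, with a median of -1.39 in pool A, which holds animal 8, and 0.62 in pool B, and without animal 8 2 of the 8 were called higher. Of 29 genes of mitochondrial dynamics and the inner-membrane pore, 3 rose and 11 fell, with a median of -0.28, but 8 were higher and 0 lower without factors, with a median of 0.34. Vdac1, the outer-membrane channel, and Ppif, cyclophilin D, changed by -0.97 and -0.83, and by -0.36 and -0.17 without factors. Tspo, an outer-membrane protein abundant in macrophages, was at 17.9, 18.6, 15.4, 17.6 and 21.6 CPM at 4 weeks, 21.8 and 29.5 CPM at 6 weeks and 41.9 to 53.7 CPM (median 45.7) at 8 weeks, a log2 change of 1.35. Mcub, which damps the calcium uniporter, rose by 1.98.

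In glycolysis several muscle forms fell and a pair of forms common in other tissues rose. Of 31 genes 2 rose and 13 fell, with a median of -0.41 (0.20 without factors, where 6 were higher and 1 lower), and 6 fell without animals 12 and 42. The genes that rose were Hk1, a hexokinase found in most cells, with 11.9 to 31 CPM at 4 weeks and 38.2 to 53.1 CPM at 8 weeks (1.33), and Pfkp, the platelet-type phosphofructokinase (0.78). Pgam2, the muscle phosphoglycerate mutase, fell by 1.05 and Phkg1, the muscle phosphorylase kinase subunit, by 1.24.

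Genes of NAD+ synthesis and use were called in both directions, as were all genes (17.3% higher and 15.4% lower). Of 14 synthesis genes 1 rose and 5 fell, with a median of 0.05, and 1 rose and 1 fell without animals 12 and 42. Without factors 5 were higher and none lower, with a median of 0.64. Nadk2, the mitochondrial NAD kinase, changed by -0.80 and by -0.21 without factors, and Nmnat3 by -0.37, which is 0.25 without factors and lost its call without any of animals 7, 10, 11, 12, 42, 43 or 44 (-0.36 to -0.40). Nnmt, which methylates nicotinamide, rose by 0.95. Nmrk2, the muscle kinase of nicotinamide riboside, named after its values were seen, was at 303, 578, 241, 124 and 512 CPM at 4 weeks and 323 to 558 CPM (median 457) at 8 weeks and did not pass (0.36). Of 22 genes of NAD+ use 6 rose and 2 fell. The polymerases Parp9, Parp12 and Parp14, known as interferon-induced genes, rose by 0.86, 1.1 and 1.03, and the ADP-ribosyltransferase Art3 fell by 1.76.

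Stress lists held genes that rose and genes that fell. Of 31 genes of the integrated stress response 6 rose and 10 fell, with a median of -0.07, but 13 were higher and 3 lower without factors, with a median of 0.52. Cth, which makes cysteine (ENSMUSG00000028179.12, chr3:157894248-157925077), was at 2.71, 1.24, 1.04, 1.43 and 0.893 CPM at 4 weeks, 0.79 and 0.193 CPM at 6 weeks and 0.114 to 0.483 CPM (median 0.177) at 8 weeks, a log2 change of -2.75 on few counts. Gpt2 fell by 1.51 and the hormone Stc2 by 0.93 (a change of -0.29 without factors), while Asns, asparagine synthetase, rose by 1.62. The composite ATF4 site, searched as TGATGNAAN on both strands, was in 7 of 27 windows of this list (25.9%) against 4.04% of all promoters. Chac1, a glutathione-degrading target of ATF4, was at 90.8, 9.0, 8.49, 7.42 and 13.8 CPM at 4 weeks, and its fall of 2.0 was 0.87 without animal 7 and lost its call without any of animals 7, 10, 12 or 39 to 44.

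Animal 7 also set other values of 4 weeks. Depp1, a target of FOXO factors, was at 146.7, 6.83, 9.64, 5.92 and 30.8 CPM, and its fall of 3.11 was 1.64 without animal 7 and lost its call without animal 39. Arrdc2 was at 118, 12.4, 22, 19.9 and 25 CPM, and its fall of 2.83 was 1.73 without animal 7. Among 27 genes of atrophy and ubiquitin ligases none rose and 8 fell, with a median of -0.20, but 10 were higher and 2 lower without factors, with a median of 0.44, and in pool B alone 3 were higher and 5 lower. The muscle ligases Trim63 and Fbxo32, named after their values were seen, stood at 601 and 963 CPM in animal 7 against 119 to 232 and 40.8 to 181 CPM in the other 4. Trim63 fell by 1.15, which was 0.58 and not called without animal 7, and its call was also lost without animal 12, 39, 40, 41 or 44 (-0.99 to -1.16). Fbxo32 did not pass, and its change of -0.28 was 0.74 without animal 7, 0.02 without animal 41 and 0.23 without factors. Mstn, myostatin, the inhibitor of muscle growth, fell by 1.84 with 41.9 to 95.8 CPM at 4 weeks and 8.45 to 27.4 CPM at 8 weeks, and the glucocorticoid target Klf15 by 1.9.

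Of 27 p53 targets and cell death genes 12 rose and 4 fell, and without animals 12 and 42 7 and 2. The rises included executors of cell death: Gsdmd, which forms pores in pyroptosis, by 1.22 and Mlkl, of necroptosis, by 1.55. Ccng1, a p53 target, fell by 0.95. Of 30 autophagy and lysosome genes 8 rose and 5 fell, against 17.3% of all genes higher and 15.4% lower, so the falls do not stand out. The lysosomal hydrolases Hexa and Ctsb and the growth factor Grn, all abundant in macrophages, rose by 0.98, 1.0 and 1.12. The sum of the macrophage markers rose with them, and its part in these values was not tested.

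Of 29 oxidative stress genes 6 rose and 3 fell, against 17.3% and 15.4% of all genes, so neither count stands out. Gpx1 rose by 0.72 and the extracellular dismutase Sod3 by 1.25, while the mitochondrial dismutase Sod2 changed by -0.78 (-0.18 without factors) and Gstm1 by -1.13. Of 23 heat shock genes 5 rose and 3 fell, shares also near those of all genes. The near-identical Hspa1a and Hspa1b, whose split is uncertain, rose by 1.63 and 2.21, highest in animal 40, and Dnajb5 changed by -0.94 (-0.30 without factors). Of 24 genes of the unfolded protein response 5 rose and none fell, and 2 rose without animals 12 and 42.

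The other turnover lists turned with the scaling. With factors, 17.3% of all genes were higher and 15.4% lower. Of 31 proteasome genes none rose and 11 fell, with a median of -0.28, but without factors 3 were higher and none lower, with a median of 0.35. Of 18 genes of mitochondrial stress and chaperones none rose and 8 fell, with a median of -0.32, but without factors 3 were higher and none lower, with a median of 0.27. Of 20 cytosolic aminoacyl-tRNA synthetases none rose and 4 fell, with a median of -0.20, but without factors 3 were higher and none lower, with a median of 0.43. Without animals 12 and 42 the counts that fell were 6, 4 and 3.

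Of 28 genes of the dystrophin complex and membrane repair 6 rose and 8 fell, against 17.3% of all genes higher and 15.4% lower. Their median was -0.14, but 12 were higher and none lower without factors, with a median of 0.51. Annexins, which seal torn membranes, rose (Anxa1 1.6, Anxa4 1.34), as did myoferlin, Myof (1.63). Capn3, a muscle protease, changed by -0.84 (-0.24 without factors).

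Matrix remodelling genes rose in part, while collagens and fibroblast markers rose at near the share of all genes. Of 37 matrix remodelling and TGF-beta genes 15 rose and 2 fell, Mmp3, stromelysin, by 2.99 with 0.573 to 1.85 CPM at 4 weeks and 3.78 to 15.1 CPM at 8 weeks. Elastin (Eln) fell by 1.61 and Timp3, a protease inhibitor, by 1.16. Timp4, of the same family and not in the list, was at 49.7, 32.9, 38.1, 37.3 and 50.9 CPM at 4 weeks, 15.5 and 7.03 CPM at 6 weeks and 3.6 to 10.6 CPM (median 5.26) at 8 weeks, a log2 change of -2.71. Of 18 collagens 3 rose and 1 fell, against 17.3% of all genes higher and 15.4% lower (6 rose and none fell without animals 12 and 42). Col8a1 rose by 1.99, Col14a1 by 0.96 and Col6a3 by 0.68, and Col11a1 changed by -1.34. The calls of Col14a1 (0.79 to 0.93 without animal 7, 8, 10 or 44), Col6a3 (0.48 to 0.72 without animal 7, 8, 10, 11, 39, 40, 41 or 44) and Col11a1 (-1.14 and -1.32 without animal 42 or 44) were lost when those animals were left out. Of 18 fibroblast markers 3 rose and none fell (5 rose without animals 12 and 42), and Tcf21 had no count.

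Few cytosolic ribosomal proteins or adipocyte markers were called. Of 46 ribosomal proteins Rpl3 rose by 0.92 and 1 other gene fell, with a median of -0.15 (0.47 without factors), and 9 were higher and none lower without factors. Of 11 adipocyte markers 1 fell, with a median of -0.35 (0.19 without factors). Of 11 tendon markers 1 rose and 3 fell, with a median of -0.62 (0.03 without factors), and 1 fell without animals 12 and 42. Of 29 genes of lipid and sterol synthesis 4 rose and 4 fell (1 and 2 without animals 12 and 42). These counts are near the shares over all genes (17.3% and 15.4%). Of 17 circadian clock genes 1 rose, Ciart (1.68), and 2 fell, Hlf among them (-1.21), with a median of -0.01 (0.61 without factors).

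Of 25 myokines and growth signals 5 rose and 2 fell, among them Il15 (1.3) and Igfbp3 (-1.57), with a median of -0.04 (0.55 without factors). Over all genes 17.3% were higher and 15.4% lower. Of 20 genes of polyamine and amino acid metabolism 1 rose and 8 fell, with a median of -0.36 (0.23 without factors), but 6 were higher and 1 lower without factors. Of 16 genes of creatine, carnosine and purine buffering 3 rose and 7 fell, with a median of -0.39 (0.25 without factors), but 7 were higher and 1 lower without factors. Without animals 12 and 42 the counts that fell in these lists were 4 and 3.

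Named genes outside the lists went both ways. Prune2 (ENSMUSG00000039126.9, chr19:16956118-17223932) was at 4.06, 14, 3.33, 2.67 and 6.67 CPM at 4 weeks, 35.1 and 69.9 CPM at 6 weeks and 83.8 to 174 CPM (median 113) at 8 weeks, a log2 change of 4.5, and it rose in wild type as well (2.46). The wild-type groups overlapped, with 3.94 to 5.47 CPM at 4 weeks and 4.5 to 76.1 CPM (median 12.3) at 8 weeks. Ppp1r1a, inhibitor 1 of protein phosphatase 1 (ENSMUSG00000022490.6, chr15:103530279-103538003), was at 53.5, 34.8, 53.8, 53.5 and 42.2 CPM, then 39.3 and 16.6 CPM, then 3.13 to 8.27 CPM (median 5.11), so animal 19 was still inside the 4-week range and animal 20 below it. The phosphatase Dusp26 fell by 3.25 and the potassium channel subunit Kcne1l by 3.36, and in wild type Kcne1l fell by 5.49.

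The path at 6 weeks rests on 2 animals that differ from each other. From 4 to 6 weeks 53 genes (0.363%) were higher and 22 (0.151%) lower, and from 6 to 8 weeks 15 (0.103%) were higher and 51 (0.349%) lower, by the same edgeR test. At an unadjusted p below 0.05 these comparisons held 1886 and 2823 genes, and without animal 20 1 gene was called from 4 to 6 weeks and without animal 19 none from 6 to 8 weeks. Without animals 12 and 42 the counts were 36 and 0. The comparisons share the libraries of 6 weeks, and each shares libraries with that of 4 against 8 weeks, so their values stand side by side as a description only.

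Of the 53 genes called higher by 6 weeks, 10 were interferon genes of the list of 30, and without animal 20 only 1 gene in all was called in this step. Irf7 rose by 2.55, Oasl2 by 1.95 and Ifi27l2a by 2.05 from 4 to 6 weeks, and their changes from 6 to 8 weeks were 0.01, 0.26 and 0.54. Itgax and Prune2 rose by 4.67 and 3.24. Among the falls were Alas2 (-2.19), Hbb-bt (-1.95), Timp4 (-1.94), the growth-factor binding protein Igfbp3 (-1.75) and the poly(A) polymerase Tent5c (-1.45).

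Changes that passed between 6 and 8 weeks named other genes. Ppp1r1a fell by 2.30 in that step and by 0.80, not called, in the one before. The imprinted noncoding RNAs Rian and Meg3 and the muscle growth factor Fgf6 changed by -1.94, -1.44 and -1.71. Titin was at 44950, 69040, 46070, 53150 and 52520 CPM at 4 weeks, 100500 and 104500 CPM at 6 weeks and 26750 to 51830 CPM (median 31460) at 8 weeks, highest in the 2 animals of 6 weeks, with a change of -1.56 in the last step. Meg3 had the same shape, with 19.6 to 33.8 CPM at 4 weeks, 46 and 67 CPM at 6 weeks and 15.7 to 29.8 CPM at 8 weeks. The rises of this step were the chemokine Cxcl14 (1.89), the exchanger Slc9a9 (1.37), the kinase Camk1d (1.34), the myeloid and adipose factor Cebpa (1.34) and Tmc6 (1.29). Cxcl14 was at 19.7, 18.9, 13.8, 16.3 and 18.5 CPM at 4 weeks, 15 and 15.9 CPM at 6 weeks and 35.7 to 117 CPM (median 48.6) at 8 weeks.

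**Figure D4:**
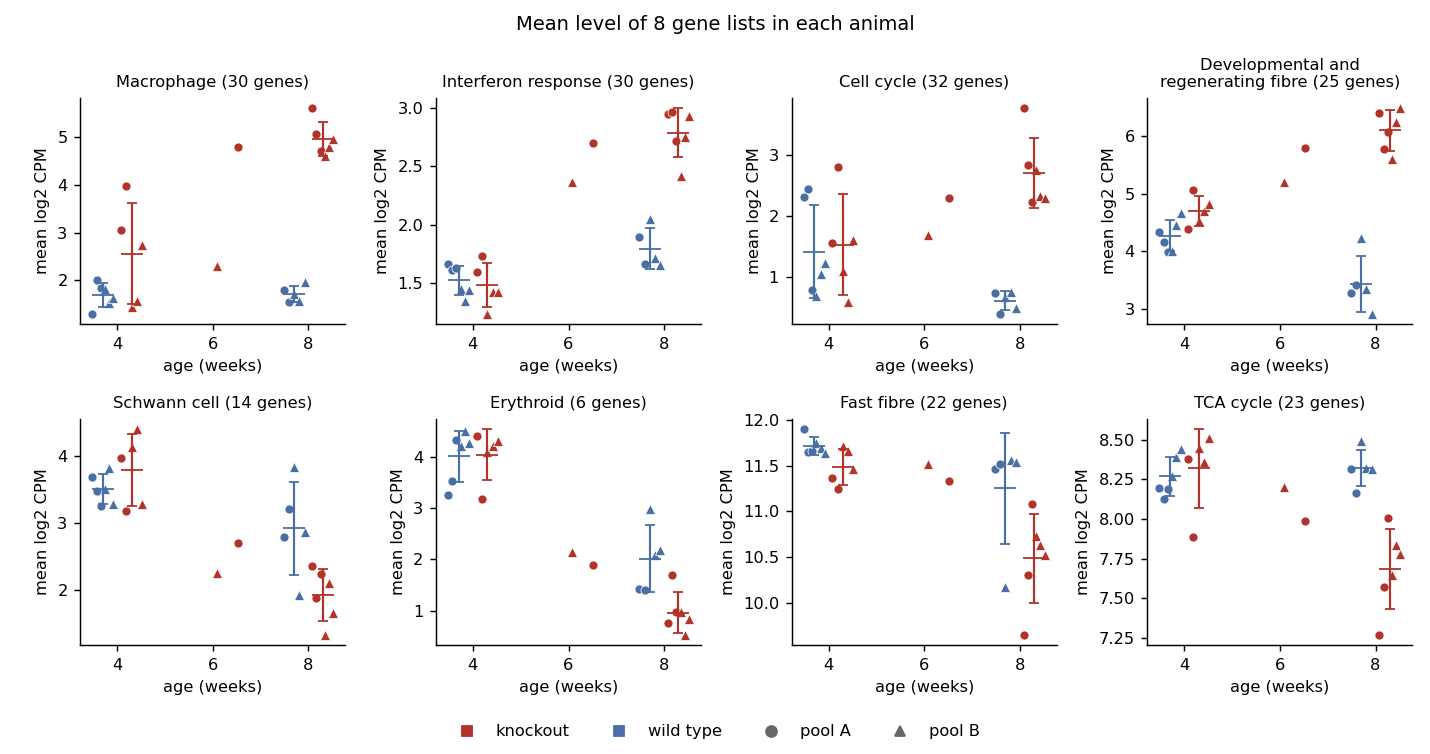
Mean log2 CPM over the members of 8 lists (y axis, its range set for each list) by age in weeks in knockout (red) and wild-type (blue) animals, 1 point per animal, circles for pool A and triangles for pool B, with the group mean and SD as bars. For the interferon list both knockout animals of 6 weeks lie above all 5 of 4 weeks, for the macrophage list animal 20 does and animal 19 does not, and the fast-fibre list is lowest in animal 39.

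In wild type fewer genes were called over the same 4 weeks. By the same edgeR test over 22 libraries, 751 genes (5.14%) were higher and 687 (4.70%) lower at 8 weeks. Of the genes called in both genotypes, 384 went the same way (8.04% of the knockout calls and 26.7% of the wild-type calls) and 163 opposite ways (3.41% and 11.3%). Over all genes 17.3% were called higher and 15.4% lower in the knockout, and the overlap expected by chance was not computed. The wild-type fit also held the knockout libraries of 4 and 8 weeks for its spread and pool term, so the calls are not fully separate. Genes that went the same way included the erythroid genes, Dlk1, Actc1, Igfbp3 and Eln. Wild-type counts moved with single animals, from 1438 to 847 without animal 5, 930 without animal 6 and 951 without animal 37, and to 765 without the libraries over 5% rRNA.

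The change differed between the genotypes for 3003 genes, 1543 (10.6%) higher in the knockout change and 1460 (9.99%) lower, by an interaction contrast in edgeR. Of 30 macrophage markers 21 differed upward, with a wild-type median of 0.07. Of 32 cell cycle genes 24 differed upward, with a median of -0.81 in wild type, where 1 gene was called. Of 25 genes of regenerating fibres 14 differed upward, Myh8 by 5.57 (SE 0.60, edgeR adjusted p = 4.16e-05) and Mymk by 5.92 (SE 0.87, edgeR adjusted p = 2.31e-04), each of which fell in wild type, by 1.92 and 2.74. Of 18 collagens 11 differed upward: in wild type 12 fell and none rose, with a median of -0.75.

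**Figure D5:**
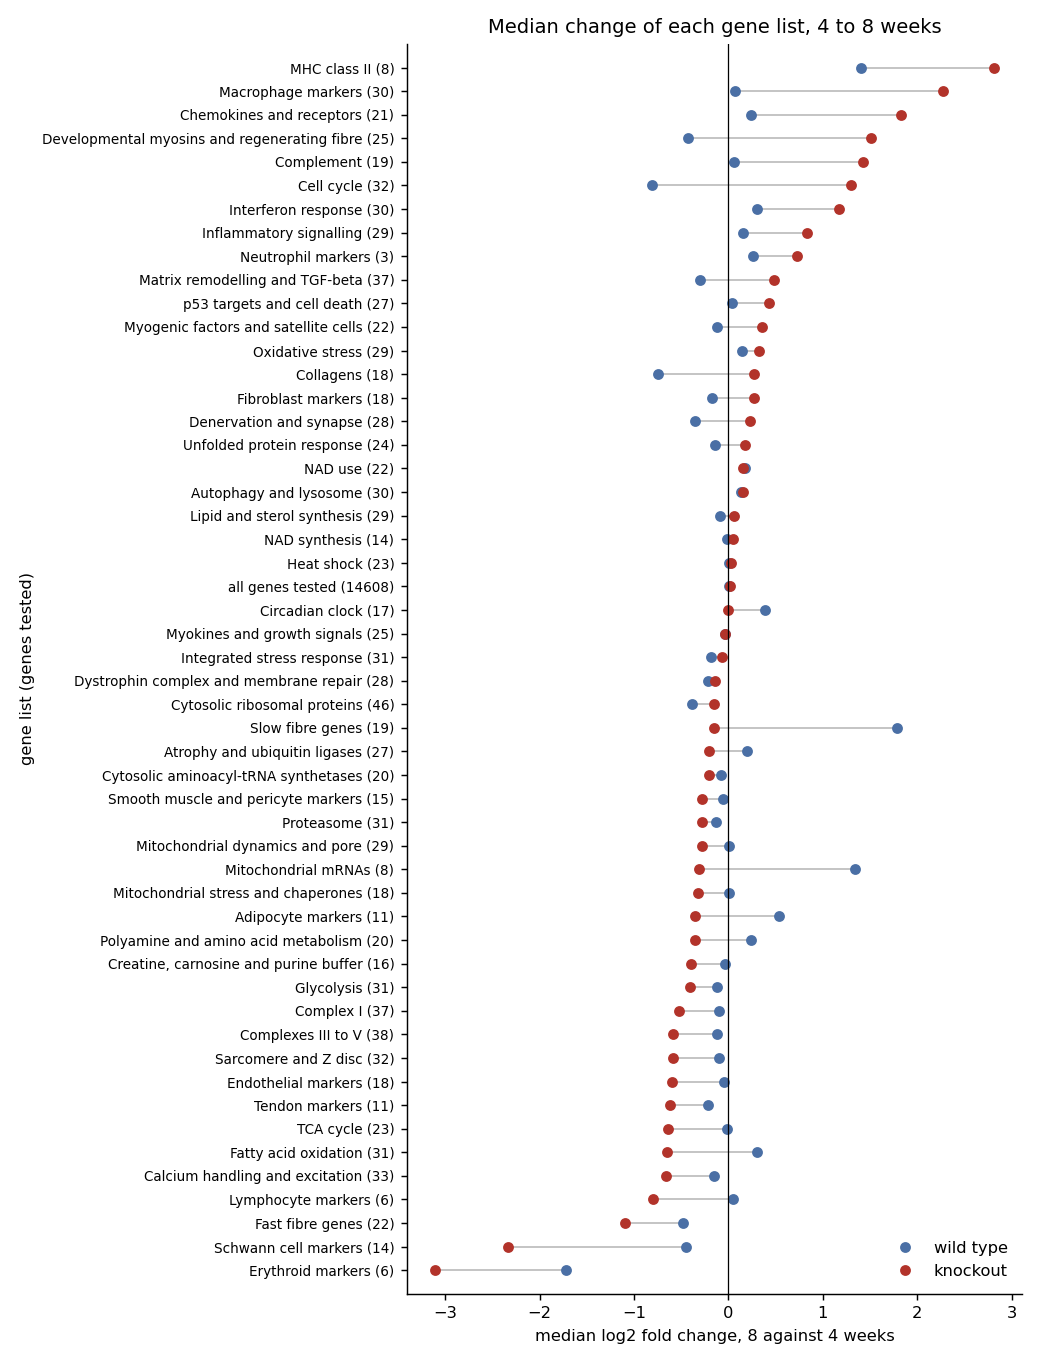
Median log2 change from 4 to 8 weeks over the members of each list (x axis) in the knockout (red) and in wild type (blue), with the number of genes tested in brackets and a line at 0. The macrophage list lies at 2.27 in the knockout and 0.07 in wild type, the MHC class II list at 2.82 and 1.41, and the erythroid list lies to the left in both. The wild-type median of the slow-fibre list, 1.78, is 0.26 without animal 36.

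Downward, 9 of 14 Schwann cell markers differed, Mal by -2.49 (SE 0.63, edgeR adjusted p = 0.00987). Of 23 TCA cycle genes 17 differed downward and of 31 fatty acid oxidation genes 17, and without animal 36 these counts were 17 and 16. Of 22 fast-fibre genes 2 differed, and 9 without animal 36, the wild-type animal with the low fast-fibre level. Slow-fibre values depended on that animal: their wild-type median of 1.78 was 0.26 without it, and the difference for Myl3, -3.15, was -1.58. Nampt differed by -1.02 (SE 0.16, edgeR adjusted p = 3.20e-04), and it rose by 0.68 in wild type. Bdh1, the ketone body dehydrogenase, rose in both, by 1.52 in the knockout and 5.09 in wild type, a difference of -3.56 (-2.95 without animal 36). Of the other named genes with the largest differences, Shisal1 (4.8) and the secreted C1qtnf3 (4.23) rose in the knockout and fell in wild type.

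The animals of 8 weeks differed from each other in degree. Animal 39 had the highest macrophage mean (5.61 log2 CPM) and cell cycle mean (3.77) and the lowest fast-fibre mean (9.65) and TCA mean (7.27). Animal 41 had the highest fast-fibre mean (11.08) and TCA mean (8.01) of the 6 and the lowest cell cycle mean (2.24). The interferon means of the 6 lay between 2.42 and 2.97, all above the highest of 4 weeks, 1.74. On the fast-fibre list the lowest animal of 4 weeks, animal 8 at 11.24, stood above animal 41.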

How the data were processed

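Gastrocnemius RNA was sequenced with a stranded total RNA kit after ribosomal RNA removal, in paired reads of 38 bases, per the labels. The authors deposited a table of raw counts per gene; per the submitters' processing notes the tools were STAR 2.5.2b, featureCounts 1.5.2 and edgeR 3.22.0. From the counts, the 14608 genes that passed edgeR's filterByExpr (minimum count 10, total 15) were tested with edgeR 4.0.16 (R 4.3.3), with TMM factors over the 26 libraries of 4, 6 and 8 weeks, a robust quasi-likelihood fit of group and pool, and Benjamini-Hochberg adjustment over all genes tested. Counts of 13422624 to 20760973 per animal at 8 weeks, and of 6668855 upward at 4 weeks, set the precision. On simulated counts with 200 changed genes of 14608 the test recovered 29.9% of 1.5-fold, 74.6% of 2-fold and 100% of 4-fold changes in the knockout comparison of 8 and 4 weeks. The changed genes were drawn from those with higher counts, and the spread of each gene was set by its abundance alone. No pool effect or outlying animal was put in, so these rates hold for that setting only. DESeq2 1.42.0, other scalings, filters, terms and left-out libraries were alternatives. Named genes were the 15 largest called changes each way with mean log2 CPM of at least 2, the same sign in both pools and a call without animal 8, 5 each way for the steps at 6 weeks, 8 each way for the difference between genotypes, and up to 4 members a list by smallest p plus members that had to be named because they missed the threshold; some genes under this rule are not reported here. The members, lists and tests were chosen with earlier results of these data known. GENCODE vM21 gave gene coordinates (GRCm38).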

Additional observations from a re-analysis of the deposited data

Results flagged for a closer look

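In 27 of 342 groups of 5 or 6 knockout animals, 1 animal lay far from the others of its group by Dixon's test. Chance gives about 1 group in 20. Animal 7 of 4 weeks was far lower for Myl4 (6.682 CPM) and Shisal1 (0.5418 CPM) and far higher for H2-Eb1 (26.23 CPM), H2-Aa (40.81 CPM), Dusp26 (101.2 CPM) and Chac1 (90.75 CPM). Animal 8 of 4 weeks, with 29.3% of its counts in rRNA genes, was far lower for Hbb-bt (11.17 CPM), Acadm (150.8 CPM), Cd55 (9.307 CPM), Cox6a2 (418.8 CPM), the mean log2 CPM of the erythroid markers (3.173) and that of the TCA cycle list (7.89). It was far higher for Stat2 (7.756 CPM), Ccne1 (1.241 CPM) and Mcub (3.102 CPM). Animal 10 was far lower for Parp14 (10.73 CPM) and animal 11 for Il15 (1.041 CPM).

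Among the animals of 8 weeks, animal 39 was far lower for Aqp4 (1.45 CPM) and Myot (485.3 CPM). It was far higher for Tent5c (8.788 CPM), Slc9a9 (20.05 CPM), Ccnb2 (9.584 CPM), Tyms (5.859 CPM), Ctsb (911.5 CPM) and Grn (182.8 CPM). Animal 43 was far higher for Nampt (51.99 CPM) and animal 42 far lower for Ifit3 (4.558 CPM).

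The change from 4 to 8 weeks differed between knockout and wild type, by the interaction contrast in edgeR, for 3003 genes, among them the 16 named genes compared. Of these, 15 were named for having the largest such differences, so that they differ was fixed by their choice, and Nampt was named as the deleted gene. The knockout minus wild-type log2 change was -1.02 for Nampt, 6.39 for Mmp12, 4.25 for Myh3, 4.41 for Myl4, 5.57 for Myh8, 3.71 for Ms4a7, 5.92 for Mymk, 4.80 for Shisal1 and 4.23 for C1qtnf3. It was -3.07 for Dusp26, -2.49 for Mal, -3.07 for Ppp1r1a, -2.37 for Arrdc2, -3.71 for Chac1, -3.56 for Bdh1 and -3.15 for Myl3. All 16 kept their call without wild-type animal 36, with Myl3 at -1.58 and Myh3 at 5.27. Values of single genes without knockout animal 7 are not given for these differences. That animal lay far from its group for Myl4, Shisal1, Dusp26 and Chac1 and was the highest of 4 weeks for Arrdc2. Within the knockout the change of Chac1 was -0.87 and not called without animal 7.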

How the results depend on the processing

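Of 157 called genes in the text, 110 kept direction and call under every alternative but pool A alone, which kept 6. With no scaling factors 7188 genes were higher and 292 lower in the knockout at 8 weeks, and 7693 and 370 with rRNA genes also taken out, a setting added after the data were seen like those without animals 12 and 42 or wild-type animal 36. Pool A alone gave 4 and 11. Leaving out 1 library gave 1894 to 3069 genes higher and 1482 to 2701 lower, 1 to 167 called from 4 to 6 weeks, 0 to 921 from 6 to 8 weeks, 847 to 1547 in wild type and 2258 to 3626 for the difference, and a Nampt difference of -0.26 to -0.39.

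From 4 to 6 weeks (75 called) the count was 872 with no filter, 719 with all 37 libraries, 150 without libraries over 5% rRNA, 36 without animals 12 and 42, 40 with no factors and rRNA taken out, and 309 by DESeq2. From 6 to 8 weeks (66) it was 878 with no factors, 1516 with no filter, 17 with no pool term, 3 with a sex term, 1580 with all libraries, 182 without libraries over 5% rRNA, 0 without animals 12 and 42, 2329 with no factors and rRNA taken out, and 818 by DESeq2. The wild-type count (1438) was 388 with no factors, 2571 with all libraries, 765 without libraries over 5% rRNA and 519 with no factors and rRNA taken out. The difference count (3003) was 5588, 4595, 199 in pool A, 1965 in pool B and 5517 with rRNA also taken out, the first with no factors and the second with all libraries.

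The Nampt difference was 0.34 with no factors and 0.24 with rRNA also taken out (exact permutation p = 0.177 and 0.212), -0.43 in pool A and -0.25 in pool B (exact p = 0.1 and 0.2). Log2 changes that turned sign with no factors were Fbxo32 0.23, H19 0.035, Meg3 0.32, Nampt 0.27, Nmnat3 0.25 and Ttn 0.094, and with rRNA also taken out Fbxo32 0.21, Meg3 0.23, Nampt 0.20 and Nmnat3 0.17. In pool B Fbxo32 was 1.18 and H2-Ob 2.38, without animal 7 they were 0.74 and 2.18, and without animal 41 Fbxo32 was 0.02. Over the libraries left out in turn H2-Ob spanned -1.28 to 2.18 and Fbxo32 -0.71 to 0.74. The cause was not tested. No paired analysis was possible because the groups share no replicate numbers. Genes of a few CPM rest on few counts, fewest in the small library of animal 8.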
